A study of Mus musculus with 16 samples.

Results

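The genes of sterol and fatty acid synthesis, with the regulators that control their transcription, were examined in RNA from hippocampal microglia of mice aged 20 months or 3 months. The set held 34 genes chosen by name, all of them rows of a table of 24015 genes, and 31 of the 34 were expressed highly enough to be tested among 11579 genes. None of the 31 was called higher or lower at 20 months. The cells, the brain's resident immune cells, were sorted live as CD11b+ and CD45lo after douncing and magnetic myelin removal, and their RNA was amplified with a SmartSeq kit. Each age had 6 samples, and no treatment or transgene is named for either. The 20-month samples 1 to 4 and every 3-month sample carry the strain label C57BL/6. The labels of the libraries of aged samples 5 and 6 read C57BL/7, C57BL/8 and C57BL/9, which may be an entry error. Whether a sample is a single animal or pooled animals is not given in the labels. All p-values therefore rest on how these samples vary, which may be technical. Aged samples 3 and 6 and young samples 2 and 4 were each sequenced as 2 libraries whose values are averaged in the deposited table.

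Cholesterol is built from acetyl-CoA through mevalonate, squalene and a series of sterol intermediates, and fatty acids are built from the same precursor by carboxylation, chain elongation and desaturation. Both pathways are controlled by the SREBP transcription factors, membrane proteins that the escort protein Scap carries from the endoplasmic reticulum to the Golgi for cleavage when sterols are low, and that the Insig proteins hold back when sterols are high. In the adult brain, astrocytes and oligodendrocytes are known as the main cholesterol producers. Microglia take up and digest sterol-rich myelin, and sterol synthesis is tied to the activity of LXR receptors in these cells.

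SREBPs bind sterol regulatory elements in promoters, next to sites for NF-Y and Sp1, so the start-site sequence of the members is given here first. RefSeq promoter windows of build GRCm38.p6, running from 250 bases before to 50 bases after a transcript start, were found for 27 of the 34 members. These windows numbered 35, since Pmvk, Dhcr7, Srebf1, Scap and Insig2 have several starts. None was matched for Fdps, Fdft1, Sqle, Scd1, Scd2, Fads1 and Stard4. The 6 windows below are those of Hmgcs1, which held the exact sterol regulatory element, of the SREBP control genes with only 1 window (Srebf2 and Insig1), and of the enzymes with a window and the smallest unadjusted p in the age comparison (Hsd17b7, Cyp51 and Acly). Each is written 5′ to 3′ on the gene's own strand. Capitals mark the NF-Y motif CCAAT, which reads ATTGG where it lies on the opposite strand, and in Hmgcs1 also the element TCACNCCAC. Hmgcs1 lies at chr13:119690101-119690400 on the plus strand, Hsd17b7 at chr1:169969156-169969455 on the minus strand, Cyp51 at chr5:4104648-4104947 on the minus strand, Acly at chr11:100527951-100528250 on the minus strand, Srebf2 at chr15:82147019-82147318 on the plus strand and Insig1 at chr5:28071162-28071461 on the plus strand.
Hmgcs1: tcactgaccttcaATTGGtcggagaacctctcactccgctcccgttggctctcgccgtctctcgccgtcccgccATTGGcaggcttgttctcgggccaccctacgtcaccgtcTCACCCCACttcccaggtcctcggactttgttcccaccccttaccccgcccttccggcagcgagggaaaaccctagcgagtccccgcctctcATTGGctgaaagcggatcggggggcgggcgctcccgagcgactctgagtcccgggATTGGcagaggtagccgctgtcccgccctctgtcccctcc
Hsd17b7: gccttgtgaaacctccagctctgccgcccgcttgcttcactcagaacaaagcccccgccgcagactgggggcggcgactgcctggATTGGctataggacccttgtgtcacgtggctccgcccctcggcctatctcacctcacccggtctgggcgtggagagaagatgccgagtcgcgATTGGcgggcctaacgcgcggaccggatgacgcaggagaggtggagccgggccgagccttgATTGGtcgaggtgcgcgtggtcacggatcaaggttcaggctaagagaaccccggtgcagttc
Cyp51: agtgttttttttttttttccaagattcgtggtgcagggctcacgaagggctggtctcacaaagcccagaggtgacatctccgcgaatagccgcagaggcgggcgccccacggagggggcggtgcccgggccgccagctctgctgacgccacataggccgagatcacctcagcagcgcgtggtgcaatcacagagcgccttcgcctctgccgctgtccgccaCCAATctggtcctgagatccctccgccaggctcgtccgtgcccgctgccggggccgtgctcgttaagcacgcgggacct
Acly: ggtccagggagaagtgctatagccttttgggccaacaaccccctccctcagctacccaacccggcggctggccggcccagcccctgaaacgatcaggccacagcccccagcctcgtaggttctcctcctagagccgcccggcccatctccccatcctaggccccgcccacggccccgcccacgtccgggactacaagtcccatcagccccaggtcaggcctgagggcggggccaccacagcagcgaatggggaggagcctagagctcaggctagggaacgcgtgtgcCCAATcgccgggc
Srebf2: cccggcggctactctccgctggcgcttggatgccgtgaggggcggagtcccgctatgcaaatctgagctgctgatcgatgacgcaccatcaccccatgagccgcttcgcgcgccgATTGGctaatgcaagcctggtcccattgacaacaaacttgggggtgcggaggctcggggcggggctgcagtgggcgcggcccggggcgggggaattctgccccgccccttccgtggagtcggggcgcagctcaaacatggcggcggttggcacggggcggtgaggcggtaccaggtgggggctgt
Insig1: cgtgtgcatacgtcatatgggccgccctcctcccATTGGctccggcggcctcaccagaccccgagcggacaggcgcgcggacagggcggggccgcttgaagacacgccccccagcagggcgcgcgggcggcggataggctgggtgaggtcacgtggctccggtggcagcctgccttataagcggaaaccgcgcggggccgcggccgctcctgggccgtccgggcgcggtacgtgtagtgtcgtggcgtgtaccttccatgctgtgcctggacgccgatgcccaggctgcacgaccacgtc

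Searched on both strands, CCAAT was found in the windows of 22 of the 27 member genes (81.5%), against 41.1% of the 27025 genes with a window of the same length. The Sp1 motif GGGCGG was found in 21 of 27 (77.8%), against 38.2% of all genes. The element TCACNCCAC was found in 1 of 27, Hmgcs1, and in 1.44% of all genes. With 1 mismatch to TCACCCCAC allowed, 6 of 27 members (22.2%) held it, against 11.1% of all genes, and these were Acat2, Hmgcs1, Nsdhl, Hsd17b7, Srebf2 and Elovl5. Of the 48 CCAAT matches in member windows, 29 lay within the 100 bases before the transcript start, 4 lay after it, and 33 were on the strand opposite to the gene. Mvk held 5 of them and Hmgcs1 4. Hsd17b7, with 3 matches, held the motif 165, 73 and 12 bases before its start. In Acly the 1 match lay after the start. Among member windows 1 pair of CCAAT matches overlapped, in Fasn, and no CCAAT match overlapped a GGGCGG or sterol regulatory element match. A match describes these letters in these windows and is no evidence that a factor binds there.

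**Figure D1:**
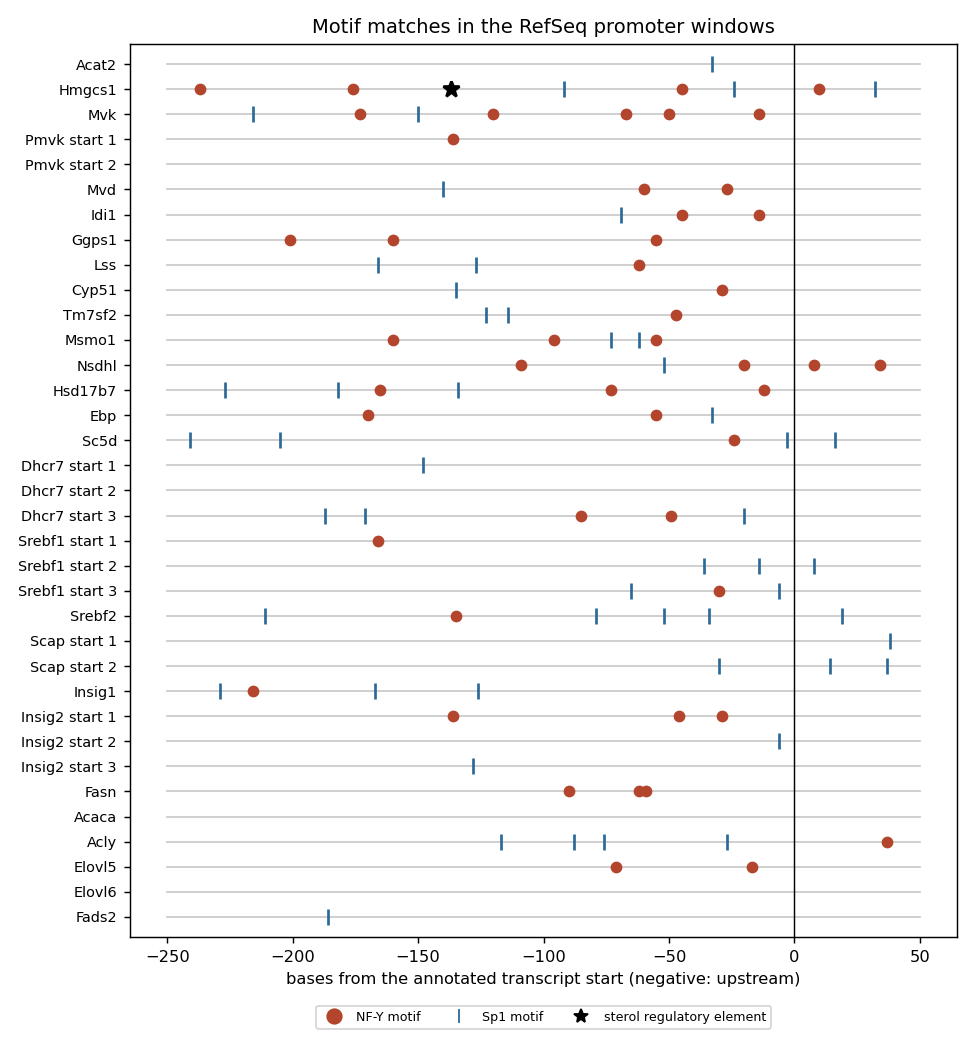
Positions of 3 motifs in the 35 RefSeq promoter windows of 27 member genes, in bases from the annotated transcript start (0, negative upstream), 1 line a window. Circles are CCAAT (NF-Y), short bars GGGCGG (Sp1) and the star TCACNCCAC, present only in Hmgcs1 among these windows. Of the 48 circles, 29 lie within 100 bases before the start.

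Levels of the members spanned the range from hardly detected to abundant, and no member's rank on the scale below differed by more than 2 places between the ages. The scale is normalized counts per kilobase of merged annotated exon. It adjusts for length but pools the exons of all annotated transcripts of a gene, so different genes are only roughly comparable. Acly was highest at 2205 ± 368 in aged and 1963 ± 182 in young samples (SD, n = 6 each). Acly encodes ATP citrate lyase, which supplies cytosolic acetyl-CoA to both pathways. It was followed by Fads1 (977 ± 64.2 in aged, 1017 ± 98.9 in young), a fatty acid desaturase, Scd2 (795 ± 96.6 and 974 ± 143 in the same order of ages), a stearoyl-CoA desaturase, and Ebp (701 ± 64.0 and 736 ± 57.3), a sterol isomerase. In aged samples the next 4 genes, Srebf1 (558 ± 53.6), Insig2 (554 ± 73.5), Scap (536 ± 41.5) and Elovl5 (509 ± 53.8), lay within their spread of each other. At the low end per kilobase in aged and young samples were Acaca (4.82 ± 2.01 and 4.61 ± 1.25), Stard4 (3.90 ± 1.48 and 3.45 ± 2.03), Fads2 (3.02 ± 3.95 and 1.81 ± 1.42), Elovl6 (2.99 ± 1.99 and 3.01 ± 2.19), Hmgcs1 (2.31 ± 2.05 and 3.04 ± 3.58) and Scd1 (0.523 ± 1.09 and 0.513 ± 0.389). The aged mean of Scd1 rests on aged 5, which had 13.3 normalized counts where the other aged samples had 0 to 1.41. Within the fatty acid genes, Acly and Acaca, which encode consecutive steps, therefore lay far apart on this scale at both ages. The merged exon length was 5.28 kb for Acly and 17.1 kb for Acaca.

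**Figure D2:**
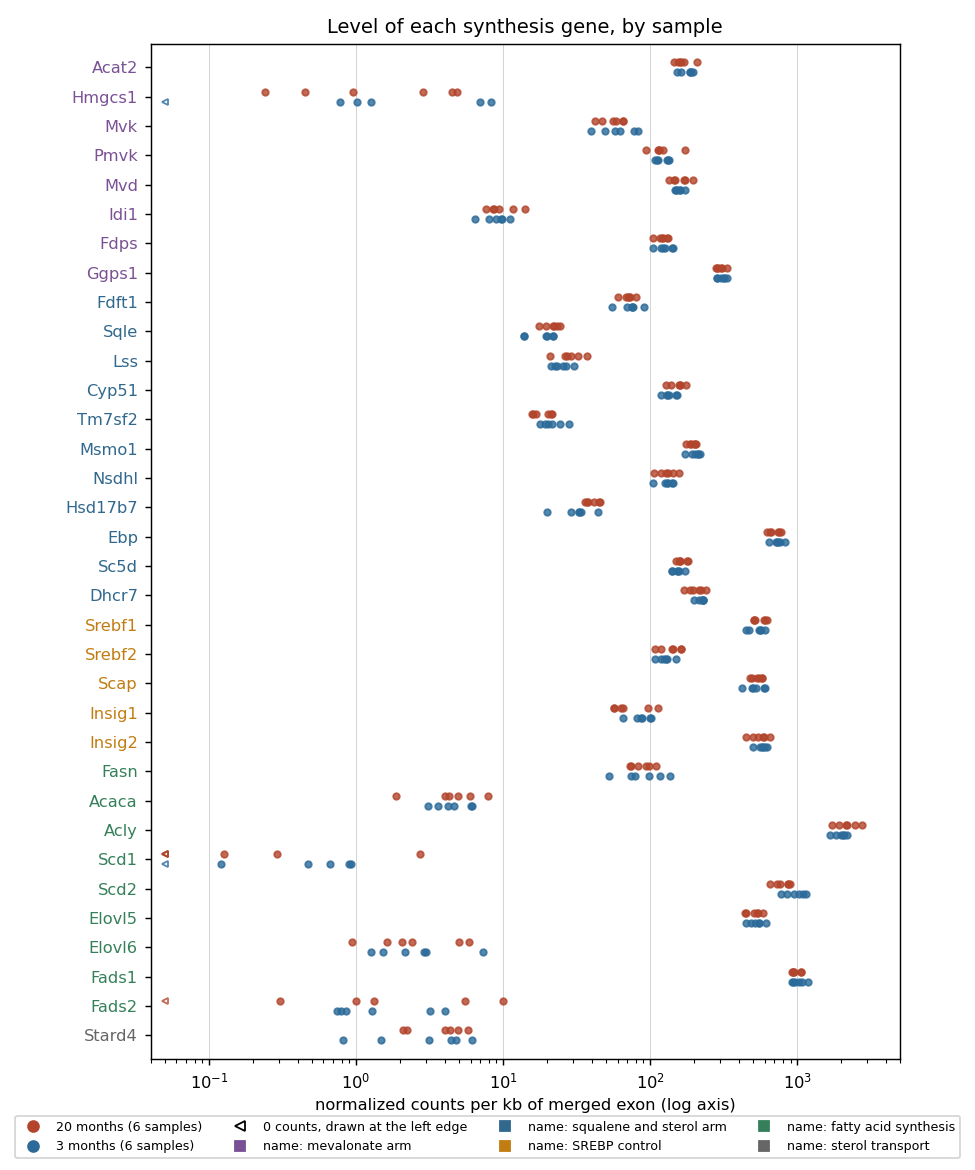
Level of all 34 members in each of the 12 samples, as normalized counts per kilobase of merged exon on a log axis. In each row the upper points are the 6 aged samples (20 months) and the lower points the 6 young samples (3 months), and open triangles at the left edge are values of 0. Acly is rightmost, with means of 2205 in aged and 1963 in young samples, and the 2 ages overlap in every row.

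Ages were compared on log2 of the normalized count plus 1 with limma, with Benjamini-Hochberg adjustment over all 11579 genes and a threshold of 0.05. Of the 31 members tested, 0 were called higher at 20 months, where 147 of all genes (1.27%) were, and 0 were called lower, where 53 (0.458%) were. At an unadjusted limma p under 0.05 there were 2 members (6.45%), Scd2 and Hsd17b7, against 10.8% of all genes. On the reads recovered from the 8 samples with 1 library, edgeR and DESeq2 also called 0 members in either direction. The values of 217 genes (1.87%) did not overlap between the ages, and none of the 34 members was among them. The log2 difference, aged minus young, was above 0 for 13 members and below 0 for 18. Its median over the members was -0.017, against 0.0016 over all genes tested, and the median of its absolute size was 0.07, against 0.10. The 95% interval of the ratio lay within 1.5-fold in either direction for 23 of 31 members, against 74.3% of all genes. It lay within 2-fold for 29 of 31, against 88.5% of all genes, and the exceptions were Elovl6 and Stard4. In bulk RNA, a change in the number of cells that express a gene and a change in RNA per cell cannot be told apart.

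**Figure D3:**
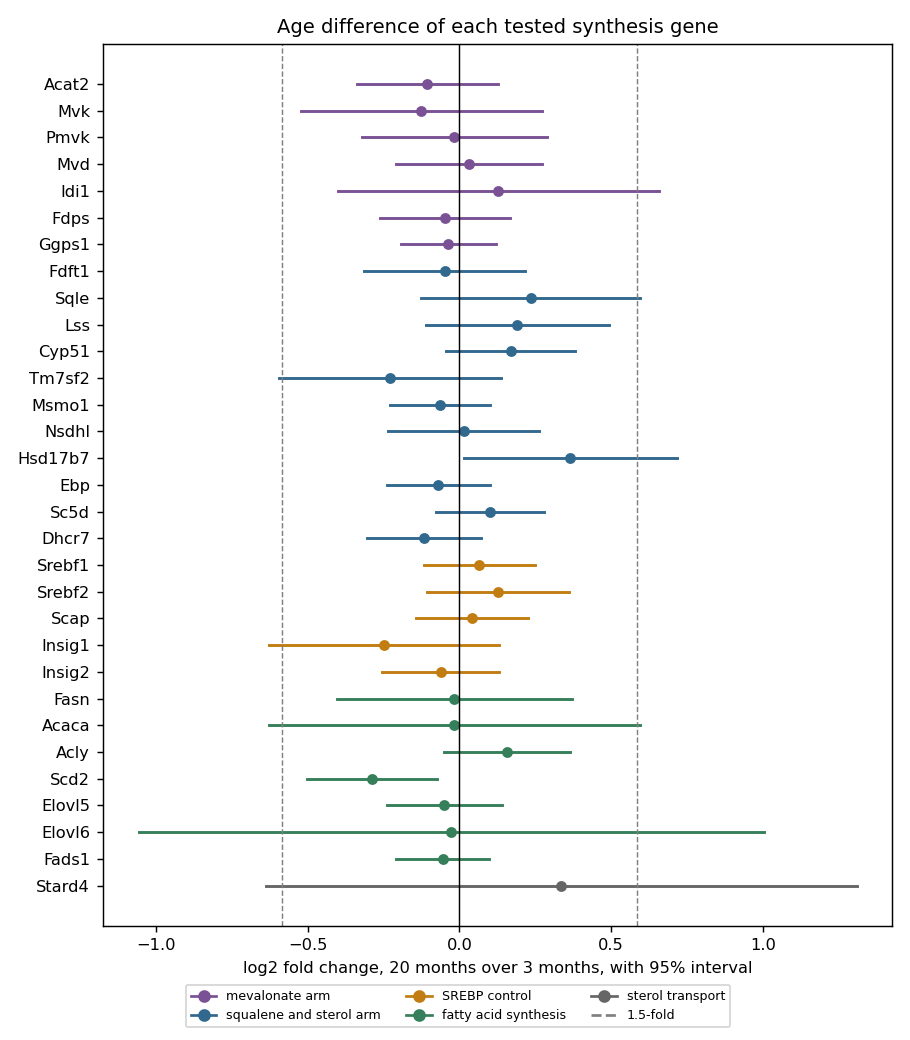
Log2 fold change of the 31 tested members, 20 months over 3 months, with 95% intervals from limma, coloured by role, and dashed lines at 1.5-fold. The intervals of Scd2, left of 0, and Hsd17b7, right of 0, are the only intervals of these 31 that leave 0 out, and neither gene passed after adjustment over all genes.

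The mevalonate arm, which turns acetyl-CoA into farnesyl and geranylgeranyl diphosphate, had 7 of 8 members tested, 2 above and 5 below 0, with a median log2 difference of -0.036 and adjusted limma p-values of 0.843 or more. Acat2, the cytosolic thiolase that opens the pathway, had a lowest, median and highest normalized count of 367, 407 and 533 in aged samples, against 385, 474 and 494 in young samples. Aged 1 was the highest of all 12 samples, while the other 5 aged samples lay below the young median (log2 difference -0.11 ± 0.11 SE, 95% interval of the ratio 0.792 to 1.09). Of the exon sequence of Acat2, 39.1% of 50-base words occur in other genes too, Acat3 and Tcp1, so its counts are uncertain.

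None of the middle steps passed the test. The kinases Mvk and Pmvk averaged 148 ± 25.3 and 208 ± 45.6 in aged samples, and 165 ± 44.0 and 208 ± 20.9 in young samples (SD, n = 6 each). The decarboxylase Mvd averaged 300.1 ± 42.0 in aged and 292 ± 16.4 in young samples, and the isomerase Idi1 34.9 ± 8.48 and 31.6 ± 5.74. Fdps, farnesyl diphosphate synthase, averaged 510 ± 42.4 in aged and 528 ± 59.9 in young samples. Ggps1, which makes the geranylgeranyl groups used to anchor small GTPases in membranes, averaged 1416 ± 88.5 in aged and 1453 ± 96.8 in young samples, and its interval was among the narrowest, 0.876 to 1.09 as a ratio. Fdps overlaps the gene Gm43738 over 26.7% of its exon bases, and 25.3% of the 50-base words of Idi1 occur elsewhere. Hmgcs1, the HMG-CoA synthase, was not tested because fewer than 6 samples reached 10 normalized counts. It ran from 1.10 to 22.2 normalized counts in aged samples and from 0 to 37.9 in young samples, with 3 aged and 2 young samples above 10. Its antisense neighbour Gm48342 overlaps 12.1% of its exon bases, and the library type does not mark strand.

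The squalene and sterol arm, from Fdft1 to Dhcr7, had all 11 members tested, 6 above and 5 below 0, with a median log2 difference of 0.014. Hsd17b7, a reductase of the sterol demethylation complex that carries 3 CCAAT matches in its window above, had the smallest p of the arm. The gene (ENSMUSG00000026675.12) spans chr1:169949535-169969241 on the minus strand of GRCm38. Its lowest, median and highest counts were 184, 203 and 234 in aged samples, against 102, 167 and 227 in young samples. All 6 aged samples lay above the young median, and the ages overlapped only through young 6. The log2 difference was 0.37 ± 0.17 SE, a ratio of 1.29 with a 95% interval of 1.01 to 1.64 (limma adjusted p = 0.422). Without young 4, the lowest of the 12 samples, the difference was 0.24 (limma adjusted p = 0.644). It was 0.21 in the 8 samples with 1 library and 0.68 in the 4 samples with 2 libraries.

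Cyp51, the lanosterol demethylase, ran from 561 through a median of 696 to 779 in aged samples, against 519, 586 and 667 in young samples. The 4 highest samples were aged, and aged 1 was lower than all but young 4 (log2 difference 0.17 ± 0.10 SE, limma adjusted p = 0.631). Sqle, squalene epoxidase, ran 96.5, 122 and 135 in aged and 76.3, 109 and 121 in young samples, with young 3 and young 4 apart at the low end (ratio 1.18, 95% interval 0.916 to 1.51). Lss, lanosterol synthase, ran 223, 302 and 403 in aged and 228, 264 and 328 in young samples, and aged samples held both the highest and the lowest value (ratio 1.14, interval 0.927 to 1.41). The log2 difference of Lss was 0.19, but 0.11 without aged 5, its highest sample, and 0.044 without aged 5 and aged 6, an alternative chosen after seeing the data. None of these 3 consecutive steps passed after adjustment.

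The next enzymes had differences on both sides of 0, and none passed. Tm7sf2, a sterol reductase, ran 69.4, 81.0 and 95.1 in aged and 78.6, 91.8 and 123 in young samples. The 3 lowest samples were aged and the 2 highest young (ratio 0.853, 95% interval 0.662 to 1.10). Msmo1, the oxidase of the demethylation complex, ran 1076, 1189 and 1252 in aged and 1062, 1266 and 1341 in young samples, and no aged sample exceeded the young median (ratio 0.957, interval 0.854 to 1.07). Nsdhl, its dehydrogenase, averaged 374 ± 52.7 in aged and 369 ± 39.4 in young samples (SD, n = 6 each). Fdft1, squalene synthase, averaged 298 ± 28.0 in aged and 311 ± 49.3 in young samples, but shares 18.3% of its exon bases with Ctsb on the other strand.

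The last steps to cholesterol had narrow intervals, and none passed. Ebp ran 1431, 1628 and 1799 in aged and 1492, 1688 and 1896 in young samples, with the 2 ages interleaved (ratio 0.953, 95% interval 0.847 to 1.07). Sc5d, a desaturase, ran 731, 775 and 876 in aged and 683, 741 and 841 in young samples, and the 2 highest values were aged (ratio 1.07, interval 0.947 to 1.21). Dhcr7, which reduces the last double bond on the Kandutsch-Russell route, ran 985, 1196 and 1395 in aged and 1157, 1314 and 1336 in young samples. The 3 lowest samples and the highest were aged (ratio 0.922, interval 0.810 to 1.05).

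All 5 SREBP control genes were tested, 3 above and 2 below 0, with a median log2 difference of 0.040 and adjusted limma p-values of 0.737 or more. Srebf1, the SREBP gene tied mostly to fatty acid synthesis, ran 2850, 3117 and 3527 in aged and 2543, 3140 and 3396 in young samples, and the ages were interleaved (ratio 1.05, 95% interval 0.923 to 1.19). Srebf2, tied mostly to sterol synthesis, ran 779, 1016 and 1166 in aged and 776, 909 and 1069 in young samples. Its 2 highest values were aged, but aged 4 and aged 1 were near the bottom (ratio 1.09, interval 0.929 to 1.28).

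Scap ran 3579, 4038 and 4313 in aged and 3152, 3815 and 4512 in young samples, and young samples held both extremes (ratio 1.03, 95% interval 0.905 to 1.17). Insig1, itself a known SREBP target whose RNA falls when sterols are plentiful, ran 174, 200 and 351 in aged and 203, 270 and 313 in young samples. Of the aged samples, 4 lay below every young sample, while aged 3 and aged 4 reached 299.5 and 351. The difference was -0.25 ± 0.18 SE on the log2 scale, a ratio of 0.842 with an interval of 0.648 to 1.09 (limma adjusted p = 0.737). Insig2 ran 1565, 1950 and 2284 in aged and 1729, 2017 and 2170 in young samples, and aged samples held both extremes (ratio 0.958, interval 0.839 to 1.09).

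Fatty acid synthesis and desaturation had 7 of 9 members tested, 1 above and 6 below 0, with a median log2 difference of -0.027. Scd2 (ENSMUSG00000025203.6, chr19:44293674-44306864 on the plus strand of GRCm38) had the smallest p of all 31 members. Its lowest, median and highest counts were 3543, 4460 and 4867 in aged samples, against 4258, 5406 and 6274 in young samples. No aged sample exceeded the young median, the 3 lowest samples were aged and the 4 highest young, and the ages overlapped in the middle. The log2 difference was -0.29 ± 0.10 SE, a ratio of 0.819 with a 95% interval of 0.705 to 0.951 (limma adjusted p = 0.241). It was -0.31 in the 8 samples with 1 library and -0.24 in the 4 samples with 2 libraries. Scd2 is also highly expressed in oligodendrocytes. Summed oligodendrocyte markers, as CPM (normalized counts scaled to a common total per sample), ran 223, 243 and 263 in aged and 220, 232 and 260 in young samples, and 4 of the 10 markers (Mog, Cldn11, Ermn and Opalin) stayed under 10 normalized counts in every sample. The part of such RNA in the Scd2 values was not tested.

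Acly, the 1 gene of this group above 0, ran 9168, 11412 and 14565 in aged and 8799, 10606 and 11431 in young samples. The 3 highest samples were aged, and young 4 was the only sample lower than aged 6 (ratio 1.11, 95% interval 0.965 to 1.29, limma adjusted p = 0.668). Fasn, fatty acid synthase, averaged 968 ± 154 in aged and 1017 ± 337 in young samples (SD, n = 6 each), and both its lowest and highest values, 574 and 1501, were young. Acaca, acetyl-CoA carboxylase, averaged 82.3 ± 34.4 in aged and 78.8 ± 21.3 in young samples, and 30.4% of its 50-base words occur in other genes. Elovl5, an elongase of polyunsaturated chains, averaged 1792 ± 189 in aged and 1854 ± 196 in young samples, and Fads1 4700 ± 309 and 4893 ± 476.

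The remaining members were at the edge of detection. Elovl6, an elongase of saturated chains, averaged 19.2 ± 12.8 in aged and 19.4 ± 14.1 in young samples, and its ratio of 0.981 had an interval of 0.481 to 2.00. Scd1, the desaturase best known from liver, reached at most 13.3 normalized counts in aged and 4.53 in young samples, and was 0 in 3 aged samples and 1 young sample. Fads2 ran from 0 to 32.8 in aged and from 2.46 to 13.2 in young samples. Neither Scd1 nor Fads2 was tested. Stard4, a cytosolic sterol carrier, averaged 21.8 ± 8.25 in aged and 19.3 ± 11.4 in young samples, with a ratio of 1.26 and a 95% interval of 0.643 to 2.48, which does not leave out a doubling.

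**Figure D4:**
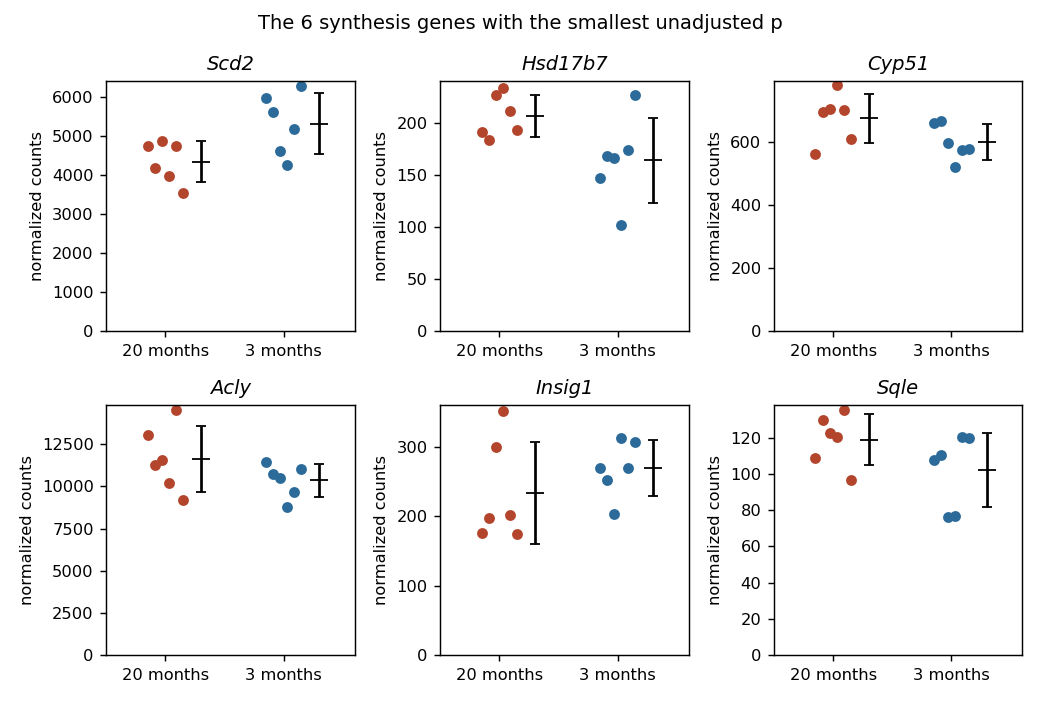
Normalized counts of the 6 members with the smallest unadjusted p, with 1 point a sample (20 months left, 3 months right) and the mean ± SD beside the points (n = 6 each), on axes that start at 0. No aged point of Scd2 exceeds the young median of 5406, all aged points of Hsd17b7 exceed the young median of 167, and 4 aged points of Insig1 lie below every young point while 2 reach 299.5 and 351.

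The samples of an age also differed from each other. Each tested member's log2 value was taken relative to its own mean over 12 samples and averaged within a role. Over all 31 tested members the sample means ran from -0.083 in aged 6 to 0.092 in aged 5, and from -0.15 in young 3 to 0.073 in young 1. Fatty acid synthesis genes had the widest spread of the roles with several members, from -0.23 in aged 4 to 0.18 in aged 5, and from -0.25 in young 3 to 0.23 in young 1. Each gene weighs the same in these means, also where its counts are low. Elovl6 was highest in young 1 (46.7 normalized counts) and next in aged 5 (38.0), and Acaca was lowest in aged 4 (31.8). In aged 4 and in aged 5 alike, 3 of the 7 fatty acid genes lay above their own mean. In aged 6, 0 of the 7 fatty acid genes lay above their own mean. The SREBP control genes ran from -0.13 in aged 1 to 0.11 in aged 3, and from -0.054 in young 3 to 0.075 in young 2. The squalene and sterol arm ran from -0.081 in aged 2 to 0.12 in aged 4, and from -0.14 in young 3 to 0.046 in young 6. Young 3 was thus the lowest young sample for 3 of these 4 roles, while in the mevalonate arm its mean was 0.076.

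Between samples of the same age, Msmo1 and Ggps1 were among the steadiest members. Msmo1 had a coefficient of variation of 5.53% in aged and 8.11% in young samples, and Ggps1 6.25% and 6.66%. Elovl6 was the most variable tested member, at 66.6% in aged and 72.9% in young samples. Among members with means above 200 normalized counts, Insig1 reached 31.7% in aged against 14.9% in young samples, and Fasn 15.9% in aged against 33.2% in young samples. For these differences in spread no test was made.

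**Figure D5:**
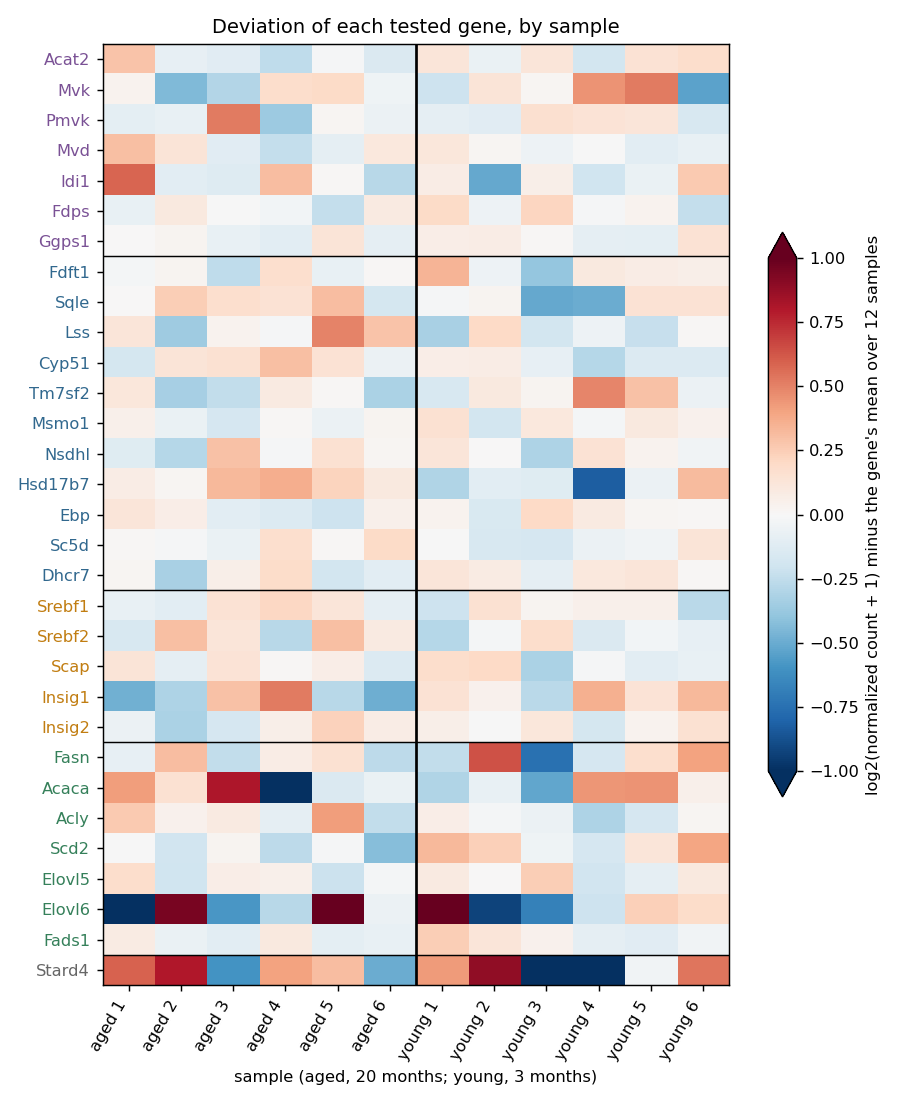
Deviation of each tested member from its own mean over 12 samples, as log2 of the normalized count plus 1, with the 6 aged samples left of the thick line and the 6 young samples right of it, and horizontal lines between roles. Colours saturate at 1 on the log2 scale. Low-count genes such as Elovl6 and Stard4 show the strongest colours at both ages, and the fatty acid genes of young 3 average -0.25.

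Genes of the same pathways outside the set were read from the same fit. Of 14 further synthesis enzymes tested, limma called 0, with 3 above and 11 below 0, where all genes tested split into 5850 above and 5729 below. At an unadjusted limma p under 0.05 there were 2 of them (14.3%), against 10.8% of all genes. Smallest in p was Acsl6, an acyl-CoA synthetase, at 7.10 ± 6.84 in aged and 18.6 ± 8.05 in young samples (SD, n = 6 each, limma adjusted p = 0.283). Its counts were low, with an aged lowest and median of 0 and 6.00, against 8.04 and 18.1 in young samples. That aged median lay below the minimum count set for testing, and the ratio was imprecise (95% interval 0.114 to 0.774). Next was Lbr, the lamin B receptor and a sterol reductase like Tm7sf2, at 2672 ± 271 in aged and 3114 ± 362 in young samples (limma adjusted p = 0.334).

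Of 15 genes of SREBP processing and sterol-driven degradation, limma called 0, with 6 above and 9 below 0, and 0 had an unadjusted p under 0.05, against 10.8% of all genes. Those smallest in p were Erlin1, an endoplasmic reticulum membrane protein, at 1840 ± 187 in aged and 2047 ± 230 in young samples, and Pgrmc1, a binding partner of Insig1 and Scap, at 2558 ± 119 and 2738 ± 156 (limma adjusted p = 0.632 and 0.699). Of 13 SREBP-responsive uptake and lipid genes tested, limma called 0, with 8 above and 5 below 0, and 3 (23.1%) had an unadjusted p under 0.05, against 10.8% of all genes. Thrsp, a lipogenic regulator, had 1989 ± 221 in aged and 1687 ± 107 in young samples (limma adjusted p = 0.243), and Aacs, acetoacetyl-CoA synthetase, 1125 ± 135 and 967 ± 72.9 (limma adjusted p = 0.400). Of 8 genes of LXR and its targets, limma called 0, with 4 on each side of 0, and 2 (25%) had an unadjusted p under 0.05, against 10.8% of all genes. Lpcat3, a phospholipid acyltransferase, had 8842 ± 709 in aged and 10454 ± 999.9 in young samples (limma adjusted p = 0.142), and the efflux transporter Abcg1 3372 ± 478 and 3860 ± 319 (limma adjusted p = 0.433).

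Read depth in the 8 samples with 1 library was 11.4 M reads in young 1 and 23.4 to 47.3 M reads in the others. The microglial identity of the samples was checked on 10 markers, all tested, whose summed CPM ran 63318, 67517 and 69729 in aged and 70691, 72456 and 76455 in young samples. The ages did not overlap in this sum, and Fcrls was the 1 marker called, lower at 20 months. Of the other lists, summed choroid plexus markers ran from 16.5 to 132 CPM in aged and from 9.95 to 49.3 in young samples. Monocyte markers ran from 4.71 to 9.16 and from 2.46 to 4.59, so the ages did not overlap in this low sum either. Of the 3 monocyte markers tested, 0 were called. Astrocyte markers ran from 214 to 282 and from 208 to 259. Of the 4 astrocyte markers tested, Aldh1l1 was called higher at 20 months. Slc1a3, Gfap and Aldoc, with log2 differences of 0.059, 0.77 and 0.36, were not called. Slc1a3 was by far the most abundant, at 6351 ± 723 normalized counts in aged and 6091 ± 620 in young samples. Among those not tested, Aqp4 and Slc4a4 had lower means in aged samples, and Gja1 and Slc1a2 higher ones. The part of the cells of these lists in the values of the members was not tested.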

How the data were processed

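RNA of sorted hippocampal microglia from 6 aged (20 months) and 6 young (3 months) samples was analysed. The deposited values are the authors' normalized counts, a non-negative signal with 1 column a sample. STAR, SAMtools, DESeq2 and build mm10 are named without versions in the submitters' processing notes. In 8 columns, those of samples sequenced as 1 library, each value above 0 was a whole multiple (within 0.1) of the same step, so reads were recovered there. The 4 columns of samples with 2 libraries hold means of both.

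Testing required 10 normalized counts in 6 or more of the 12 samples, and 11579 genes met this. Normalized counts, with 1 added as pseudocount, were taken to log2 and aged samples set against young ones in limma 3.58.1 (R 4.3.3), in a two-sided test that models variance as a trend of the mean, with Benjamini-Hochberg adjustment over all genes tested. The pseudocount understates the change of low genes. The test was also run on simulated counts, with changes larger than those of the members and a simpler spread than in these data. That run cannot show whether changes as small as those of the members would be found. All differences are aged minus young, and intervals are 95% intervals from limma.

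The members and lists were chosen with earlier results of these data known, so no p-value was adjusted over the members and no score over them was tested. Lowest, median and highest values are given for the 5 SREBP control genes and the 12 other members with the smallest p, and for other lists the 2 genes with the smallest p are named. Of the genes on those lists, Hacd1 to Hacd4 and Erg28 matched no symbol of the table and were not analysed here, and some other genes of these lists are not reported here. Exon lengths, overlaps and shared 50-base words come from the GENCODE M21 annotation of the same build, and promoter windows from RefSeq. Alternatives varied the filter, pseudocount, scaling, limma settings, samples and block, and ran edgeR 4.0.16 and DESeq2 1.42.0 on the recovered reads.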

Additional observations from a re-analysis of the deposited data

Results flagged for a closer look

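Of 88 sets of 6 samples compared for a value far from the rest, 4 were flagged, and chance flags about 5% of such sets, which is 1 in 20. Pmvk, the phosphomevalonate kinase, had 295 normalized counts in aged 3, where the other aged samples lay between 160 and 208. Scd1 had 13.3 normalized counts in aged 5, against 0 to 1.41 in the other aged samples. Elovl6 had 46.7 normalized counts in young 1, the sample with the fewest reads of the 8 whose depth was recovered, against 8.07 to 19.2 in the other young samples. The summed monocyte markers reached 9.16 CPM in aged 4, against 4.71 to 6.05 in the other aged samples.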

How the results depend on the processing

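Across 26 alternative fits, 0 members were called higher and 0 lower, and the lowest adjusted limma p of a member was 0.105, for Scd2 without young 4. Scd2 stayed between -0.35 and -0.23 on the log2 scale and Hsd17b7 between 0.19 and 0.68. Over all genes, the replicate block gave 30 lower calls, against 53. Sample numbers did not pair the samples (correlations of deviations from -0.121 to 0.107), so this says nothing of effect size. Limma called 67 genes higher and 11 lower in samples with 1 library, and 18 and 1 in samples with 2, which are fewer samples. On recovered reads of the 8 samples with 1 library edgeR called 76 and 15, and DESeq2 184 and 51. Leaving out each sample in turn gave 102 to 175 higher and 27 to 60 lower calls. Lower calls were 35 without aged 2, young 1 or young 4, 32 without young 2, 27 without young 5 and 30 without young 6. Without aged 5 and aged 6, chosen after seeing the data, they were 136 and 60. Allowing 1 mismatch in the sterol regulatory element raised the member genes with a match to 6.

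Some members that were not called changed sign, none past the threshold in any of these fits, and the cause was not tested. In samples with 2 libraries the log2 difference was 0.22 for Pmvk, -0.014 for Mvd, 0.076 for Fdps, 0.034 for Msmo1, 0.0028 for Ebp, -0.072 for Srebf1, -0.095 for Scap, 0.043 for Insig2, 0.19 for Acaca, 0.12 for Elovl5, 0.24 for Elovl6 and -0.47 for Stard4. In samples with 1 library it was 0.040 for Mvk, 4e-04 for Fdft1, -0.021 for Nsdhl and 0.22 for Fasn. With edgeR it was -0.015 for Nsdhl, 0.16 for Fasn and 0.028 for Elovl6, and with DESeq2 -0.013 for Nsdhl and 0.16 for Fasn. Quantile normalization gave -9e-04 for Mvd and -0.008 for Nsdhl. Without aged 5 and aged 6 it was -0.027 for Nsdhl, 0.0065 for Fasn and 0.031 for Acaca. With 1 sample left out, Pmvk ran from -0.12 to 0.054, Mvd from -0.026 to 0.082, Fdft1 from -0.13 to 0.015, Nsdhl from -0.047 to 0.073, Scap from -0.019 to 0.085, Fasn from -0.17 to 0.11, Acaca from -0.18 to 0.23 and Elovl6 from -0.27 to 0.26. Elovl6, Stard4 and the members not tested had low counts and are the least precise, and in the 4 samples with 2 libraries the depth was not recovered.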
